A study of Mus musculus with 45 samples.

Results

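The constant region genes of the mouse antibody heavy chain were followed across cultured follicular B cells: Ighm, Ighd, Ighg3, Ighg1, Ighg2b, Ighg2c, Ighe and Igha. They were taken by gene symbol from the deposited table of TPM, a length-normalized share of the transcripts in a library, in which they are 8 of 30317 genes, and each was present as 1 row. All 8 passed the filter on low values, Ighe with at least 1 TPM in the 3 sorted Blimp1+ libraries and 3 others.

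Splenic follicular B cells from B6 Blimp1 GFP/+ mice, in which 1 copy of the gene for the plasma cell factor Blimp1 carries a GFP reporter, were cultured on a layer of mouse stromal cells. The layer was OP9-DL1, a bone marrow stromal line that displays the Notch ligand Delta-like 1 (called DL1 here), or the parent line OP9. Poly(A) RNA of viable sorted cells was sequenced in 45 libraries, 3 for each of 15 groups. The question was how signals through Notch change the response of B cells to a bacterial product and to their antigen receptor. On DL1 the groups were cells sorted as Blimp1+ after LPS, cells with LPS at 20, 44 and 68 h, cells with F(ab')2 antibody against IgM (anti-IgM) at 20, 44 and 68 h, and unstimulated cells at 68 h. On OP9 they were the same LPS and anti-IgM groups and the unstimulated cells at 68 h, with no sort for Blimp1. LPS came from Salmonella, and each agent was given at 10 µg/mL. All groups shared the Blimp1 reporter genotype, and the culture time of the Blimp1+ cells is not given in the labels. The labels number the replicates 1 to 3 without saying whether they came from separate mice or cultures, so the p-values measure the spread between these libraries.

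A mature B cell that has not met antigen reads 1 long primary transcript through the Ighm and Ighd genes, and alternative processing yields the IgM and IgD heavy chains. After activation, class switch recombination removes the DNA between Ighm and a downstream constant gene, so that the same variable region is joined to an IgG, IgE or IgA constant region. The recombination is preceded by germline transcripts of the downstream gene, which are polyadenylated too. In the mouse, LPS is known for directing switching to IgG2b and IgG3, interleukin 4 to IgG1 and IgE, interferon gamma to IgG2c and TGF-beta to IgA and IgG2b. When B cells become plasma cells, heavy chain transcripts become very abundant and shift from the membrane to the secreted form. The gene-level values here hold germline and switched transcripts, and membrane and secreted forms, together, so these could not be separated.

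In the mouse genome (GRCm38, GENCODE M21 annotation) the 8 genes lie on the minus strand of chromosome 12, in the transcriptional order Ighm, Ighd, Ighg3, Ighg1, Ighg2b, Ighg2c, Ighe and Igha. Ighm occupies chr12:113418558-113422730, Ighd chr12:113406604-113416324, Ighg3 chr12:113356224-113361232 and Ighg1 chr12:113325240-113330523. Ighg2b follows at chr12:113302965-113307933, Ighg2c at chr12:113285325-113288932, Ighe at chr12:113269260-113273248 and Igha at chr12:113254830-113260236. The 4 IgG genes are close relatives, and reads from shared stretches can be divided between them during quantification. Of all 31-base words in the annotated transcripts, 15% of those of Ighg2c, 9.29% of those of Ighg2b, 3.63% of those of Ighg3 and 1.72% of those of Ighg1 occurred in another member, and none did for Ighm, Ighd, Ighe or Igha. Most sharing was between Ighg2b and Ighg2c, at 186 words. The hinge, exon 2 in each IgG gene, tells the subclasses apart, since no 31-base word of these exons occurred in another member. The hinge exons are shown here because the results turn on the balance between IgG subclasses, with the in-frame cysteine codons that tie the heavy chains together in capitals.
Ighg3 hinge exon, chr12:113360529-113360576: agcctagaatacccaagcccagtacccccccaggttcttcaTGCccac
Ighg1 hinge exon, chr12:113329844-113329882: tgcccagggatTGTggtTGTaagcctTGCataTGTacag
Ighg2b hinge exon, chr12:113307261-113307326: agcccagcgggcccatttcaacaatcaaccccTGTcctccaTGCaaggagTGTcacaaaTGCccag
Ighg2c hinge exon, chr12:113288263-113288325: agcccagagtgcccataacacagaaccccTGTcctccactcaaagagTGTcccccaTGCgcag
The hinge of Ighg3 holds 1 cysteine codon, that of Ighg2c 3, and those of Ighg1 and Ighg2b 4 each. IgM and IgA carry a secretory tail whose penultimate cysteine, in capitals, binds the J chain that joins them into polymers. The tails bear on the comparison with Blimp1+ cells, where the J chain gene is also described, and each begins where the membrane form of the transcript splices away.
Ighm secretory tail, exon 4, chr12:113420870-113420928: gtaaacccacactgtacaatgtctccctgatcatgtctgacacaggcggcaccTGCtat
Igha secretory tail, exon 3, chr12:113258771-113258829: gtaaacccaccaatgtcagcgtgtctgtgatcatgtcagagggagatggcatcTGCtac

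The libraries held 3.07 to 29.1 Mreads (1 Mread is 1000000 estimated reads), with a median of 6.74 Mreads. Levels are given as scaled TPM, the deposited TPM divided by a median-ratio size factor for each library (0.442 to 1.43). In 10 libraries the beta-actin gene Actb stood at 12355 to 85337 TPM, against 217 to 2974 TPM in the other 35. These were replicates 1 to 3 of DL1 with LPS at 20 h and of OP9 with anti-IgM at 20 h, and replicate 3 of DL1 with LPS, OP9 with LPS, OP9 with anti-IgM and unstimulated OP9 at 68 h. At 20 h, high Actb and the stroma therefore cannot be told apart, and no 20 h comparison of stromas can be made without these libraries. B cell markers were present throughout: the summed level of all 9 was 530 to 6953 TPM. Stroma markers summed to 12549, 8955 and 731 TPM in replicates 1, 2 and 3 of unstimulated OP9, against 8.80 to 315 TPM in the other 42 libraries. T cell markers summed to 10.6 to 430 TPM, with Lck at 4.97 to 420 TPM and Cd3e never above 0.738 TPM and at 0 in 33 libraries. Myeloid markers summed to 6.87 to 153 TPM, highest in unstimulated OP9. In such bulk samples, fewer cells of a type and less RNA per cell cannot be told apart.

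Ighm was the most abundant member in 42 of 45 libraries, and in the other 3, all with high Actb, Ighd stood above it. Ighm averaged 29165 ± 1234 scaled TPM in Blimp1+ cells (SD, n = 3, as for all group means), and its highest value in any other library was 4620. The other groups ran in order from DL1 with anti-IgM at 68 h (4548 ± 63.8) to unstimulated OP9 (915 ± 704). Each overlapped its neighbour in that order, apart from a gap between OP9 with LPS at 20 h (2264 ± 493) and OP9 with anti-IgM at 20 h (1124 ± 402). At 68 h, 3 of the 4 replicate 3 libraries with high Actb were the lowest of their groups, at 1103 in DL1 with LPS, 2107 in OP9 with LPS and 1031 in OP9 with anti-IgM.

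Ighd, which marks resting follicular B cells, followed another order. It was highest in OP9 with anti-IgM at 68 h (1960 ± 555) and in unstimulated DL1 (1515 ± 22.4), and lowest in DL1 with LPS at 44 h (44.7 ± 0.961) and in Blimp1+ cells (39.1 ± 0.570). All LPS groups lay at or below 473 ± 150, the mean of OP9 with LPS at 20 h, and all anti-IgM groups at or above 417 ± 31.5, the mean of DL1 with anti-IgM at 20 h.

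By group mean, Ighg2b was the leading switched isotype in Blimp1+ cells, in each LPS group and in unstimulated DL1. In unstimulated OP9 it averaged 8.16 ± 5.11, against 9.23 ± 15.8 for Ighg2c. The order of Ighg2b was led by Blimp1+ cells (967 ± 73.7). DL1 with LPS followed at 68 h (518 ± 163), 44 h (377 ± 39.4) and 20 h (245 ± 37.0). OP9 with LPS came next at 68 h (207 ± 39.3) and 44 h (78.0 ± 10.7). Among these, DL1 with LPS at 68 and 44 h overlapped, as did DL1 with LPS at 20 h and OP9 with LPS at 68 h. The anti-IgM groups lay between 3.69 ± 1.18 and 14.5 ± 3.58.

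Ighg3 had the order Blimp1+ cells (548 ± 66.5), OP9 with LPS at 68 h (157 ± 52.8) and DL1 with LPS at 68 h (104 ± 34.1), of which the last 2 groups overlapped, and its lowest level was 2.93 ± 2.11 in unstimulated OP9.

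The remaining members were scarce. Ighg2c reached 89.3 ± 39.3 in Blimp1+ cells and 29.8 ± 6.90 in DL1 with LPS at 20 h, and at most 16.2 ± 4.58 elsewhere. Ighg1 was at most 22.8 ± 12.1 and Igha at most 34.6 ± 15.6, both in Blimp1+ cells. Ighe averaged 2.42 ± 0.371 in Blimp1+ cells and no more than 1.06 ± 1.84 elsewhere, and its largest estimated read number in any library was 20.7.

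**Figure D1:**
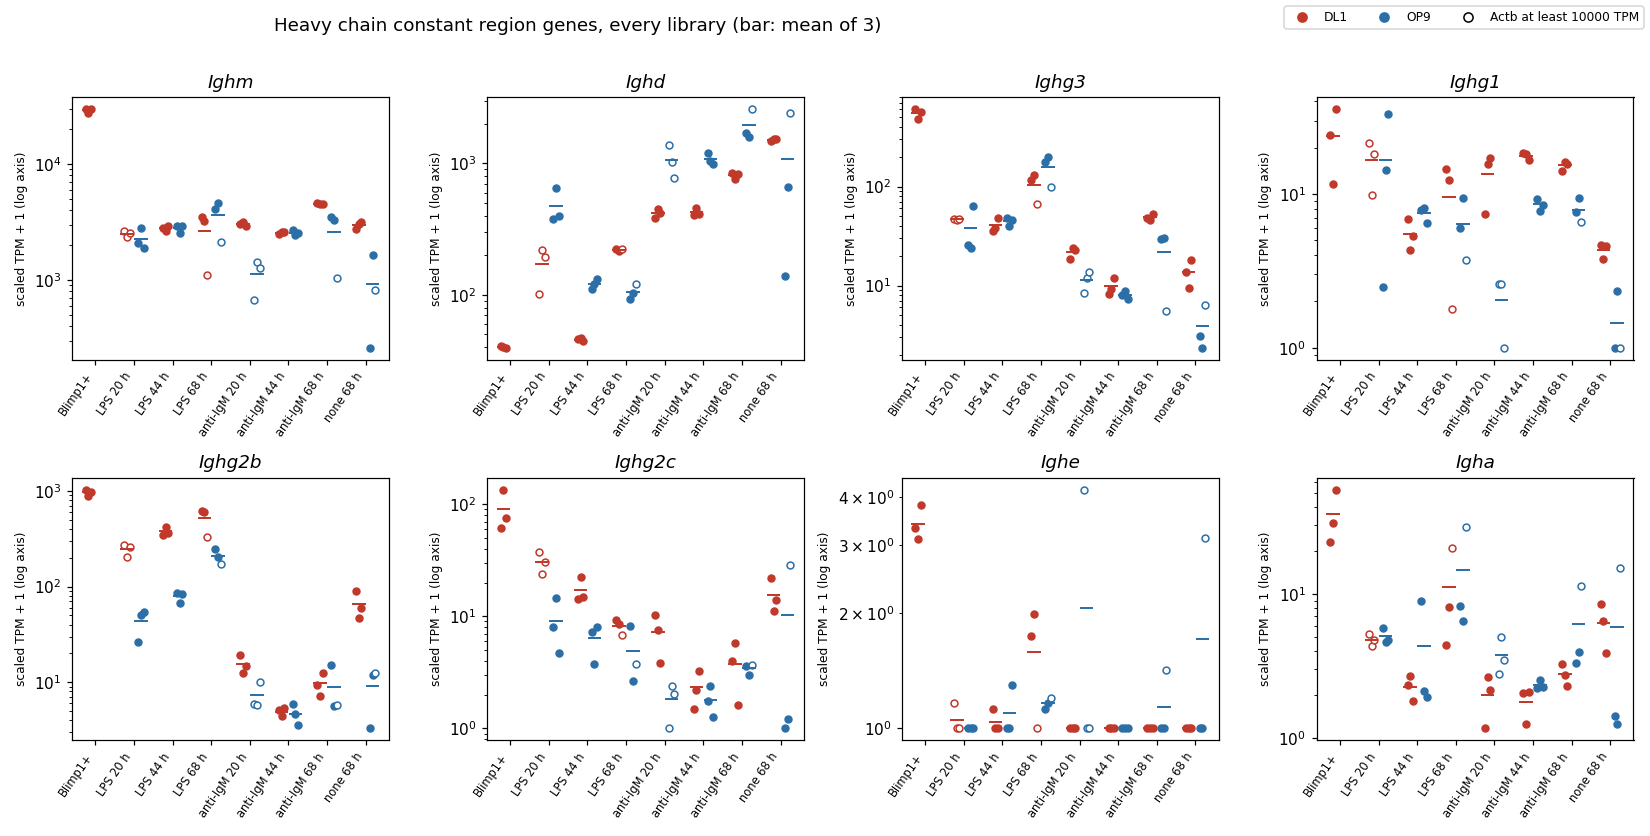
Scaled TPM + 1 (log axis) of each member in every library, with a bar at the mean of each group of 3; red is DL1, which includes the Blimp1+ cells, blue is OP9, and open circles are libraries with high Actb. Ighm in Blimp1+ cells (27741 to 29926) stands above all other groups, Ighg2b with LPS is high on DL1, and Ighd is lowest in Blimp1+ cells and in DL1 with LPS at 44 h.

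Within a library, the share of an isotype does not depend on the scaling of that library. The 6 downstream genes together, called the switched share here although germline transcripts count towards it, made up 12.3, 9.93 and 11.5% of the summed TPM of all 8 members in DL1 with LPS at 20 h, against 2.50, 2.87 and 6.38% in OP9 with LPS. At 44 h the switched share was 12.4, 15.3 and 12.6% in DL1 with LPS, against 4.85, 4.13 and 4.42% in OP9 with LPS. At 68 h it was 16.9, 18.1 and 24.1% in DL1 with LPS, against 9.52, 8.12 and 11.9% in OP9 with LPS. All DL1 libraries lay above all OP9 libraries of the same time. The difference averaged 8.71 percentage points (two-sided exact permutation test within times, 9 against 9 libraries, p = 0.00025, the smallest this design can give; adjusted over 8 share tests 0.000333). Without the 10 libraries with high Actb it was 8.80 points.

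With anti-IgM the switched share was small on either stroma, 1.33% on average in DL1 (0.990 to 1.63%) and 0.831% in OP9 (0.502 to 1.22%). The difference of 0.502 points had all DL1 libraries above all OP9 libraries of their time (exact permutation p = 0.00025, adjusted 0.000333).

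LPS gave a far larger switched share than anti-IgM on each stroma, by 13.45 points on DL1 and 5.25 points on OP9, and the libraries of the 2 agents did not overlap at any time (exact permutation p = 0.00025 and adjusted 0.000333 for each). Unstimulated cells had 3.04, 1.57 and 1.96% in DL1, against 1.20, 0.598 and 1.83% in OP9, and these overlapped.

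**Figure D2:**
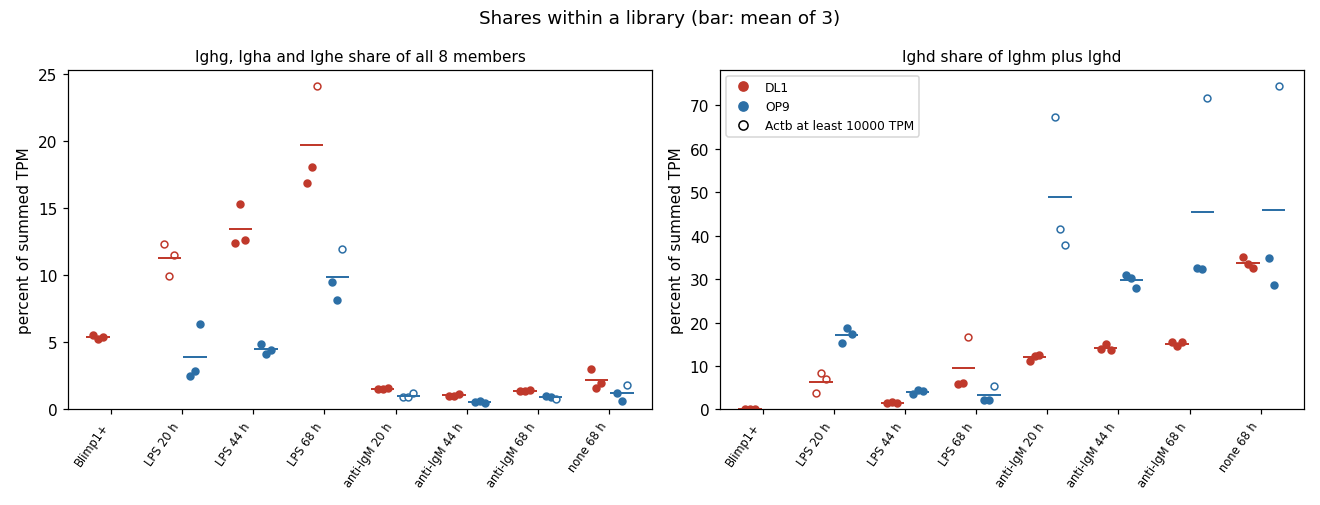
Switched share of the summed TPM of all 8 members (percent) and Ighd as a share of Ighm plus Ighd (percent), per library, with a bar at the mean of each group of 3 (red DL1, blue OP9, open circles high Actb). With LPS the switched share of each DL1 library lies above the OP9 libraries of the same time, and with anti-IgM the Ighd share of each DL1 library (11.2 to 15.5%) lies below all OP9 libraries (28.0 to 71.6%).

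The make-up of the switched share differed between stromas as well. Ighg2b formed 72.1 ± 0.653, 85.9 ± 1.22 and 79.7 ± 1.51% of the switched transcripts in DL1 with LPS at 20, 44 and 68 h, against 40.7 ± 7.0, 57.0 ± 1.5 and 53.8 ± 4.36% in OP9 with LPS. Ighg3 formed 13.6 ± 1.87, 9.10 ± 1.74 and 15.9 ± 0.934% in DL1 with LPS, against 33.8 ± 9.94, 32.0 ± 1.57 and 39.8 ± 7.66% in OP9 with LPS. The libraries of the stromas did not overlap at any of the 3 times for either gene. With 3 libraries against 3, the exact permutation p at 1 time cannot go below 0.1, and it was 0.1 for both genes at each time. As a share of all 8 members, Ighg3 differed less. It averaged 1.51, 1.21 and 3.12% in DL1 with LPS at 20, 44 and 68 h. In OP9 with LPS it averaged 1.40, 1.43 and 3.82%, and the stromas overlapped at 20 and 44 h but not at 68 h. With anti-IgM, Ighg3 made up 63.4 ± 1.72% of the small switched pool in DL1 at 68 h, and Ighg1 53.3 ± 6.88% in DL1 at 44 h. In OP9 with anti-IgM, Ighg3 made up 43.5 ± 24.4% at 68 h, which overlapped DL1. Ighg1 made up 37.1 ± 4.88% in OP9 at 44 h, without overlap.

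**Figure D3:**
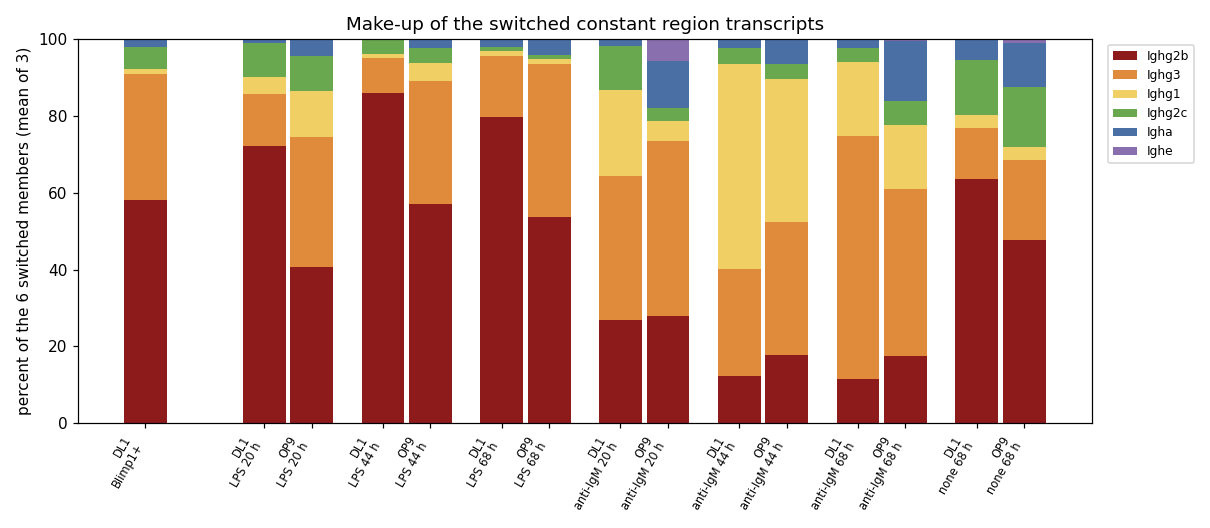
Mean make-up of the switched share by member (percent of the 6 switched members, mean of 3 libraries per group). Ighg2b takes 72.1 to 85.9% with LPS on DL1 and 40.7 to 57.0% with LPS on OP9, and Ighg3 is the second component of the LPS groups.

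The direct comparison of DL1 with OP9 was made per gene with limma, fitted to log2(scaled TPM + 1) of 15614 genes in all 15 groups, with calls made where the adjusted p was below 0.05. With LPS at 44 h, where no library had high Actb, 0.16% of all genes were called, and of the members Ighg2b alone. Ighg2b had 348, 422 and 361 scaled TPM in DL1 with LPS, against 85.4, 65.7 and 83.0 in OP9 with LPS. Every DL1 library stood well above every OP9 library, and the log2 difference was 2.26 ± 0.39 (SE; adjusted p = 0.00251), 4.83-fold between the means. The difference stayed between 2.20 and 2.28 under the other scalings, offset and filters, but the call was lost on the deposited TPM (adjusted p = 0.0691), on TPM rescaled to the genes outside the immunoglobulin families (0.0855) and on the authors' log2 values (0.337). Without the libraries with high Actb, the adjusted p was 0.000808. Ighd had 44.9, 45.6 and 43.7 scaled TPM in DL1 with LPS at 44 h, against 109, 120 and 132 in OP9 with LPS. The groups did not overlap, but the difference of −1.40 ± 0.46 was not called (adjusted p = 0.721; 0.014 without the libraries with high Actb).

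With LPS at 20 h, 8.81% of all genes were called, and 2 members. Ighg2b had 273, 203 and 258 scaled TPM in DL1 with LPS, against 25.5, 49.1 and 52.7 in OP9 with LPS (log2 difference 2.56 ± 0.39, adjusted p = 6.03e-05), again without overlap. Ighd fell to 100, 218 and 192 in DL1 with LPS, against 378, 646 and 394 in OP9 with LPS (−1.50 ± 0.46, adjusted p = 0.0361). That call was lost without replicate 1, 2 or 3 of DL1 (−1.16, −1.72 and −1.63) or replicate 2 of OP9 (−1.25), with no filter (adjusted p = 0.0668) and with only the groups compared in the fit (0.142). Ighg2c, whose product is the IgG2 subclass tied to interferon responses, had 36.8, 23.0 and 29.6 in DL1 with LPS, against 7.08, 13.5 and 3.67 in OP9 with LPS, a difference of 1.89 ± 0.71 that was not called (adjusted p = 0.0921). All 3 DL1 libraries at 20 h had high Actb, and the part of that in these differences was not tested.

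With LPS at 68 h, 0.064% of all genes were called, and no member (limma; 2 of 8 at an unadjusted p below 0.05). Ighg2b was at 617, 607 and 329 scaled TPM in DL1 with LPS, against 249, 203 and 170 in OP9 with LPS, without overlap (1.28 ± 0.39, adjusted p = 0.564). Ighd was at 222, 214 and 222 in DL1 with LPS, against 92.0, 102 and 120 in OP9 with LPS, the opposite order to that at 20 and 44 h (1.07 ± 0.46, adjusted p = 1).

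**Figure D4:**
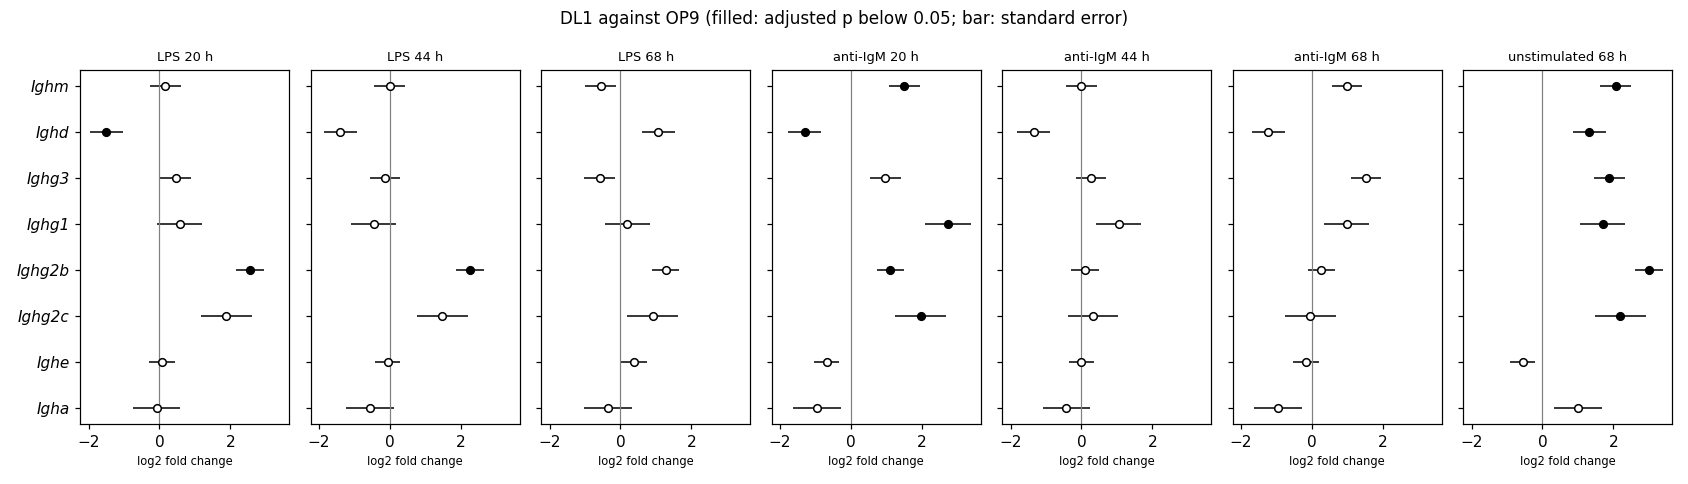
Log2 difference of DL1 minus OP9 for each member with its SE, by agent and time; filled points were called (adjusted p below 0.05). Ighg2b lies to the right of zero at every LPS time (2.56, 2.26 and 1.28), and Ighd lies left of zero with LPS at 20 and 44 h and right of it at 68 h.

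With anti-IgM, the balance of IgM and IgD differed between the stromas. Ighd made up 11.2, 12.4 and 12.5% of Ighm plus Ighd in DL1 with anti-IgM at 20 h, against 67.3, 41.5 and 37.9% in OP9 with anti-IgM. At 44 h the Ighd share was 13.9, 15.1 and 13.7% in DL1 with anti-IgM, against 30.8, 30.2 and 28.0% in OP9 with anti-IgM, and at 68 h 15.4, 14.5 and 15.5%, against 32.6, 32.4 and 71.6%. Every DL1 library lay below every OP9 library, with an average difference of −27.55 points (exact permutation within times, p = 0.00025, adjusted 0.000333). Without the libraries with high Actb, which include all OP9 libraries at 20 h and the library with 71.6%, the difference was −16.4 points, and DL1 stayed below OP9. With LPS the Ighd share differed by −2.28 points on average (adjusted p = 0.361), being lower in DL1 at 20 and 44 h and higher in DL1 at 68 h.

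Per gene, 20.5% of all genes were called with anti-IgM at 20 h, and 5 of 8 members: Ighm (log2 difference 1.51 ± 0.43), Ighg1 (2.74 ± 0.64), Ighg2b (1.12 ± 0.39) and Ighg2c (1.97 ± 0.71) rose in DL1, and Ighd fell (−1.30 ± 0.46; adjusted p of the 5 from 0.00549 to 0.047). Ighm was at 3036, 3167 and 2919 scaled TPM in DL1 with anti-IgM, against 671, 1441 and 1259 in OP9 with anti-IgM. Ighg1, the isotype of interleukin 4 responses, was at 6.45, 14.6 and 16.1 in DL1 with anti-IgM, against 1.60, 1.58 and 0 in OP9 with anti-IgM. The groups did not overlap for any of the 5 genes, but all 3 OP9 libraries had high Actb, whose part in the result was not tested. All these calls except that of Ighg1 depended on single libraries. Those of Ighd (−1.09 to −1.36), Ighg2b (0.94 to 1.26) and Ighg2c (1.58 to 2.37) were each lost without any 1 of 5 libraries. For Ighd and Ighg2b these were DL1 replicates 1, 2 and 3 and OP9 replicates 1 and 2, and for Ighg2c DL1 replicates 1, 2 and 3 and OP9 replicates 1 and 3. The Ighd difference was also smaller and not called on the deposited TPM (−0.77), on TPM rescaled to the genes outside the immunoglobulin families (−0.75), with quantile normalization (−0.83) and on the authors' log2 values (−0.66; adjusted p of the 4 from 0.177 to 0.26). With only the groups compared in the fit, the calls of Ighg2b (adjusted p = 0.114) and Ighg2c (0.0803) were lost. That of Ighm was lost without OP9 replicate 1 (1.17) or DL1 replicate 1 (1.51) or 2 (1.48). At 44 h, where 0.897% of all genes were called, and at 68 h, where 1.73% were, no member was called (limma; 1 and 3 of 8 at an unadjusted p below 0.05). Ighd was at 403, 459 and 412 in DL1 with anti-IgM at 44 h, against 1200, 1050 and 996 in OP9 with anti-IgM, without overlap (−1.35 ± 0.46, adjusted p = 0.232; 0.00495 without the libraries with high Actb). Ighg3 at 68 h was at 47.2, 44.6 and 52.2 in DL1, against 28.2, 29.4 and 4.47 in OP9 (1.53 ± 0.43, adjusted p = 0.057). The difference was 0.71 without the libraries with high Actb, of which the one with 4.47 is part.

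The scarce Ighe and Igha were called in no comparison of DL1 with OP9. Their log2 differences over the 7 comparisons were −0.69 to 0.38 for Ighe and −0.96 to 1.00 for Igha.

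Unstimulated cells differed most widely between stromas, with 26.5% of all genes called and 6 of 8 members higher in DL1. The median log2 difference was 1.80 over the members and −0.19 over all genes. Ighm was at 2760, 3021 and 3193 scaled TPM in unstimulated DL1, against 259, 1658 and 827 in unstimulated OP9 (log2 difference 2.07 ± 0.43, adjusted p = 0.000378). Ighg2b was at 88.3, 45.6 and 58.2 in unstimulated DL1, against 2.28, 10.8 and 11.4 in unstimulated OP9 (3.00 ± 0.39, adjusted p = 2.55e-07). Neither gene overlapped between the stromas. Ighd (1.32 ± 0.46), Ighg3 (1.89 ± 0.43), Ighg1 (1.70 ± 0.64) and Ighg2c (2.20 ± 0.71) were called as well, but Ighd and Ighg2c overlapped. These genes moved with other B cell genes and against stroma genes. Of the 9 B cell markers 6 rose and none fell, both measured light chain constant genes rose (Igkc by 1.54 ± 0.34 and Iglc2 by 1.56 ± 0.44), all 8 tested stroma markers fell and 3 of 6 myeloid markers fell, the stroma markers with a median log2 difference of −4.52. The summed stroma markers were 103, 260 and 147 TPM in unstimulated DL1, against 12549, 8955 and 731 TPM in unstimulated OP9. Their part in the result was not tested. With only the groups compared in the fit, the Ighg2b call alone was kept, and those of Ighm (adjusted p = 0.111), Ighd (0.468), Ighg3 (0.0743), Ighg1 (0.0771) and Ighg2c (0.361) were lost. Replicate 1 of OP9, which had the lowest Ighm, decided several values: without it the difference was 1.35 for Ighm and 2.37 for Ighg2b, both still called, and 0.26 for Ighd and 1.35 for Ighg2c, both no longer called. Without replicate 2 of OP9 it was 2.69 for Ighm (called) and 1.49 for Ighg2c (not called), and without replicate 3 it was 2.31 for Ighd and 3.76 for Ighg2c, both called. The Ighd call was also lost without DL1 replicate 1 (1.33), 2 (1.32) or 3 (1.31), that of Ighg2c without DL1 replicate 1 (1.93), and that of Ighg1 (1.5 to 1.80) without any 1 library but OP9 replicate 2. The median of all genes in this comparison was 0.15 on the deposited TPM and 0.29 on the authors' log2 values.

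Whether the effect of DL1 differed between the agents was tested as an interaction, DL1 against OP9 with LPS minus the same with anti-IgM. At 20 h 19.4% of all genes were called, at 44 h 0.0833% and at 68 h 0.199%, but no member at any time (limma; 3, 1 and 3 of 8 members at an unadjusted p below 0.05). The largest values were 2.30 ± 0.66 for Ighd at 68 h (adjusted p = 0.131), −2.17 ± 0.90 for Ighg1 at 20 h (adjusted p = 0.0833), 2.17 ± 0.55 for Ighg2b at 44 h (adjusted p = 0.168) and −2.12 ± 0.61 for Ighg3 at 68 h (adjusted p = 0.132; −1.31 without the libraries with high Actb). Without the libraries with high Actb, Ighg2b at 44 h (2.17, adjusted p = 0.0283) and Ighd at 68 h (2.17, adjusted p = 0.0364) were called. A further pair of tests, chosen after the change of direction in Ighd was seen, set the DL1 effect with LPS at 68 h against that at earlier times. For 68 minus 44 h, 0.0128% of all genes and no member were called (limma; Ighd 2.47 ± 0.66, adjusted p = 0.621). Without the libraries with high Actb, 1 member was called in that comparison. For 68 minus 20 h, 2.56% of all genes were called, and of the members Ighd alone (2.57 ± 0.66, adjusted p = 0.0275). That call was lost without DL1 replicate 1 at 20 h (2.23), DL1 replicate 1 (2.56) or 2 (2.59) at 68 h, or OP9 replicate 1 (2.48) or 3 (2.67) at 68 h.

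LPS and anti-IgM were then set against each other on each stroma. Ighg2b was higher with LPS in all 6 comparisons, and in each it was the largest change of any member. On DL1 it was at 348, 422 and 361 scaled TPM with LPS at 44 h, against 4.09, 3.38 and 4.32 with anti-IgM, a 96.0-fold difference between the means (log2 difference 6.26 ± 0.39, adjusted p = 1.19e-13). On DL1 the log2 difference was 4.0 at 20 h and 5.72 at 68 h, and on OP9 it was 2.56, 4.10 and 4.71 at 20, 44 and 68 h, all called and without overlap. Ighg3, the other isotype that LPS is known to induce, was called higher with LPS on DL1 at 44 h (2.06 ± 0.43) and on OP9 at 20, 44 and 68 h (1.62, 2.47 and 3.15). Its call on OP9 at 20 h was lost without replicate 3 with LPS (1.16), and without OP9 replicate 3 with anti-IgM at 68 h the value there was 2.34, still called. Ighd was called lower with LPS on DL1 at 44 h (−3.22 ± 0.46) and 68 h (−1.89), and on OP9 at 44 h (−3.16) and 68 h (−4.19). On OP9 at 68 h it was at 92.0, 102 and 120 with LPS, against 1699, 1582 and 2597 with anti-IgM. As a share of Ighm plus Ighd, Ighd was 33.2 points lower with LPS on OP9 (exact permutation p = 0.00025, adjusted 0.000333) and 7.95 points lower on DL1 (p = 0.001, adjusted 0.00114), where the libraries at 68 h overlapped. Ighg2c was called higher with LPS on DL1 at 44 h (2.93 ± 0.71) and on OP9 at 20 h (2.27 ± 0.71). The first call was lost without DL1 replicate 2 with LPS (2.72) or replicate 1 with anti-IgM (2.65), the second without OP9 replicate 2 with LPS (1.85) or replicate 1 with anti-IgM (1.88). Ighg1 was called higher with LPS on OP9 at 20 h (2.48 ± 0.64). It was at 1.49, 13.3 and 32.0 with LPS, against 1.60, 1.58 and 0 with anti-IgM, with overlap, and the difference was 1.66 and not called without LPS replicate 3, and 3.53 without LPS replicate 1. With only the groups compared in the fit, all 4 calls on OP9 at 20 h were lost (adjusted p from 0.0589 for Ighg2b to 0.222 for Ighg1), as was that of Ighg3 on OP9 at 68 h (0.206). On DL1 at 44 h, the Ighg3 call was lost on the deposited TPM, on the rescaled TPM and on the authors' log2 values (adjusted p from 0.0748 to 0.092), and that of Ighg2c on the authors' log2 values (0.0804) and with an offset of 0.1 (0.0702). Ighe (−0.69 to 0.60) and Igha (0.37 to 1.73) were called in none of the 6 comparisons.

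In all, 1 member rose and none fell on DL1 at 20 h, 3 rose and 1 fell at 44 h, and 1 rose and 1 fell at 68 h, against 7.11, 2.91 and 4.39% of all genes called. On OP9, 4 rose and none fell at 20 h, and 2 rose and 1 fell at 44 h and at 68 h, against 28.5, 8.63 and 4.56% of all genes. High Actb marked every OP9 anti-IgM library and every DL1 LPS library at 20 h. The summed T cell markers also moved with the agent, at 15.2 to 62.6 TPM with LPS and 45.4 to 430 TPM with anti-IgM, and their part in these results was not tested. Of these markers, Lck reached 420 TPM in the series, Cd3g 17.0 TPM, and the others no more than the 7.43 TPM of Trbc1.

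With LPS against anti-IgM on OP9 at 44 h, 8.63% of all genes were called. Of the 27 class switch recombination genes tested, 4 rose there and none fell. Those reported here were the base excision endonuclease Apex1 (1.33 ± 0.24), the RNA exosome subunit Exosc3 (1.06 ± 0.22) and the end-joining factor Xrcc6 (adjusted p = 0.00542). At 20 h, where high Actb and the agent cannot be told apart, 2 of the 27 rose and 1 fell on DL1, and 10 rose and 4 fell on OP9. The shares of all genes called there were 7.11% on DL1 and 28.5% on OP9. Counts of this list on DL1 at 44 and 68 h and on OP9 at 68 h are not reported here. Of 16 genes for switch-directing signals, 3 rose and 3 fell with LPS on DL1 at 20 h, and 3 rose and none fell at 44 and at 68 h. Of all genes, 7.11, 2.91 and 4.39% were called on DL1 at 20, 44 and 68 h. On OP9, 5 of the 16 rose and 1 fell at 20 h, 3 rose and 1 fell at 44 h, and 2 rose and none fell at 68 h. The shares of all genes called there were 28.5, 8.63 and 4.56%. The 3 of the 16 that rose on DL1 at 44 h were Cd40, the receptor for T cell help (2.03 ± 0.29), Batf, a transcription factor needed for switching (2.12 ± 0.28), and Tnfrsf13b, which encodes the receptor TACI (1.54 ± 0.41). Among the 7 RNA processing genes, only Zfp318, which the mouse B cell needs to read through to Ighd, was called on OP9 at 44 and 68 h. It fell to 4.58 ± 2.13 with LPS at 68 h, against 27.7 ± 10.5 with anti-IgM (−2.37 ± 0.42, adjusted p = 0.000306), alongside Ighd.

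Against unstimulated cells on the same stroma at 68 h, Ighg2b and Ighg3 rose and Ighd fell with LPS. On DL1, 8.1% of all genes were called and 3 members: Ighg2b rose to 617, 607 and 329 scaled TPM with LPS, against 88.3, 45.6 and 58.2 unstimulated (2.99 ± 0.39, adjusted p = 1.36e-06), Ighg3 rose to 116, 130 and 65, against 12.8, 8.42 and 17.2 (2.91 ± 0.43, adjusted p = 1.31e-05), and Ighd fell to 222, 214 and 222, against 1490, 1522 and 1534 (−2.78 ± 0.46, adjusted p = 7.38e-05). None of the 3 overlapped.

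Anti-IgM on DL1 went the opposite way for Ighg2b. With 9.52% of all genes called, Ighg2b fell to 8.41, 6.18 and 11.6 with anti-IgM, against 88.3, 45.6 and 58.2 unstimulated (−2.73 ± 0.39, adjusted p = 6.68e-06), while Ighg3 rose to 47.2, 44.6 and 52.2 (1.88 ± 0.43, adjusted p = 0.00329). The Ighg3 call was lost on the deposited TPM (adjusted p = 0.0745), on the rescaled TPM (0.0816) and on the authors' log2 values (0.0666). Ighg2c fell too (−2.17 ± 0.71, adjusted p = 0.0471), a call lost without unstimulated replicate 1 (−1.90), 2 (−2.39) or 3 (−2.23) or anti-IgM replicate 1 (−2.30) or 3 (−1.65), with the replicate number as a block (adjusted p = 0.0531), and under 4 other settings (0.0703 to 0.138). The 2 agents share their unstimulated libraries on each stroma, and those libraries also entered the comparison of the unstimulated stromas.

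On OP9, 30.5% of all genes were called with LPS and 23.9% with anti-IgM. With LPS, 5 members rose: Ighg3 (5.39 ± 0.43), Ighg2b (4.72 ± 0.39), Ighm (2.27 ± 0.43), Ighg1 (2.17 ± 0.64) and Igha (1.96 ± 0.67). Ighd fell (−2.53 ± 0.46). With anti-IgM, Ighg1 (2.54 ± 0.64), Ighg3 (2.24 ± 0.43), Ighm (1.69 ± 0.43) and Ighd (1.65 ± 0.46) rose. With only the groups compared in the fit, all 4 calls with anti-IgM were lost (adjusted p = 0.0676 for Ighg1, 0.23 for Ighg3, 0.378 for Ighm and 0.498 for Ighd), and with LPS those of Ighm (0.109), Ighd (0.175), Ighg1 (0.0605) and Igha (0.35). The Ighm call with anti-IgM was also lost on the deposited TPM, on the rescaled TPM and on the authors' log2 values (adjusted p from 0.0565 to 0.0576). The unstimulated OP9 libraries carry the stroma transcripts given above, and all 8 tested stroma markers fell with each agent, whose part was not tested. Without unstimulated OP9 replicate 1, the difference with LPS was 1.54 for Ighm, 4.09 for Ighg2b and −3.59 for Ighd, all called, and the calls of Ighm (0.96) and Ighd (0.59) with anti-IgM were lost. Without replicate 2, Ighm differed by 2.88 with LPS and 2.30 with anti-IgM. Without replicate 3, Ighd differed by −1.54 with LPS and 2.65 with anti-IgM. Igha with LPS lost its call without unstimulated replicate 1 (1.42) or 2 (1.32) or LPS replicate 3 (1.29) and stood at 3.12 without unstimulated replicate 3, Ighg1 with LPS lost it without LPS replicate 2 (1.84), and Ighg3 with anti-IgM was 3.05 without anti-IgM replicate 3.

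Over time, Ighd changed with LPS on each stroma. In DL1 it was at 100, 218 and 192 scaled TPM at 20 h, 44.9, 45.6 and 43.7 at 44 h, and 222, 214 and 222 at 68 h. The levels of 44 h did not overlap those of 20 or 68 h. The step of 44 against 20 h was −1.83 ± 0.46 (adjusted p = 0.0259; 2.21% of all genes called) and that of 68 against 44 h 2.27 ± 0.46 (adjusted p = 0.00152; 7.18% of all genes called), and no other member was called in either step. The first call was lost without DL1 replicate 2 (−1.61) or 3 (−1.70) at 20 h, or replicate 1 (−1.83), 2 (−1.84) or 3 (−1.81) at 44 h, and under 4 other scalings (−1.54 to −1.57, adjusted p from 0.0588 to 0.0878), and all 20 h libraries had high Actb.

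In OP9 with LPS, Ighd fell as well at 44 against 20 h (−1.93 ± 0.46, adjusted p = 0.0221; 1.74% of all genes called). It was at 109, 120 and 132 at 44 h, against 378, 646 and 394 at 20 h, but at 68 h it was at 92.0, 102 and 120. That call was lost without replicate 1 (−1.86), 2 (−1.93) or 3 (−2.0) at 44 h, and with only the groups compared in the fit (adjusted p = 0.15). From 44 to 68 h in OP9 with LPS, where 6.91% of all genes were called, Ighg3 (1.76 ± 0.43, adjusted p = 0.00809) and Ighg2b (1.39 ± 0.39, adjusted p = 0.0216) rose. The Ighg2b call was lost without replicate 1 (1.46), 2 (1.27) or 3 (1.44) at 44 h or replicate 1 (1.25) or 2 (1.40) at 68 h. On the deposited TPM, on the rescaled TPM and on the authors' log2 values, the calls of Ighg3 (adjusted p from 0.101 to 0.148) and Ighg2b (0.151 to 0.216) were both lost, and that of Ighg2b also with quantile normalization (0.0532).

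With anti-IgM, 3 member calls were made over the time steps. In DL1 no member was called at 44 against 20 h (limma, 0.0576% of all genes called; 3 of 8 members at an unadjusted p below 0.05), and Ighg3 rose at 68 against 44 h (2.34 ± 0.43, adjusted p = 0.01; 0.179% of all genes called), to 47.2, 44.6 and 52.2 at 68 h, against 7.12, 8.31 and 11 at 44 h. That call was lost without replicate 1 (2.21) or 2 (2.31) at 44 h or replicate 3 at 68 h (2.28), and on the deposited TPM (adjusted p = 0.192), the rescaled TPM (0.21) and the authors' log2 values (0.244). In OP9 with anti-IgM, Ighm (1.26 ± 0.43) and Ighg1 (2.18 ± 0.64) were called higher at 44 against 20 h, a step in which 24.2% of all genes were called and which sets libraries without high Actb against 3 with it. The Ighm call was lost without replicate 1 at 20 h (0.92) or replicate 1 (1.22), 2 (1.3) or 3 (1.26) at 44 h, or with no filter (adjusted p = 0.0555), and that of Ighg1 without replicate 3 at 20 h (1.72) or replicate 1 at 44 h (2.11). At 68 against 44 h 0.0128% of all genes and no member were called (limma; 1 of 8 at an unadjusted p below 0.05).

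The sorted Blimp1+ cells, from LPS cultures on DL1, had by far the most heavy chain RNA. Ighm was at 29926, 27741 and 29830 scaled TPM in Blimp1+ cells, against 2801, 2651 and 2912 in DL1 with LPS at 44 h, a 10.5-fold difference between the means without overlap (log2 difference 3.39 ± 0.43, adjusted p = 7.87e-07). In that comparison 12% of all genes were called, and 7 of 8 members rose, with a median log2 difference of 2.16 over the members and 0.09 over all genes. Ighg3 had 607, 476 and 560 in Blimp1+ cells, against 34.5, 37.4 and 47.2 in DL1 with LPS at 44 h (3.76 ± 0.43, adjusted p = 1.02e-07). Igha, which encodes the mucosal isotype, had 22.0, 29.9 and 52.1, against 1.34, 1.68 and 0.818 (3.90 ± 0.67, adjusted p = 7.46e-05). Ighg2b rose less, to 1034, 888 and 980, against 348, 422 and 361 (1.36 ± 0.39, adjusted p = 0.0162). Ighg2c (2.34 ± 0.71), Ighg1 (1.99 ± 0.64) and Ighe (1.71 ± 0.35) were also called, Ighe at 2.32, 2.11 and 2.83 in Blimp1+ cells, against 0.125, 0 and 0. Ighd was at 39.7, 38.9 and 38.6, against 44.9, 45.6 and 43.7, without overlap but not called (−0.19 ± 0.46, adjusted p = 0.924). The weaker of these calls depended on single libraries. That of Ighg1 (1.62 to 2.16) was lost without any 1 library but Blimp1+ replicate 2. That of Ighg2b (1.3 to 1.35) was lost without Blimp1+ replicate 1 or 3 or culture replicate 1 or 3. That of Ighg2c (2.00 to 2.43) was lost without Blimp1+ replicate 2 or 3 or culture replicate 1 or 3. These 3 calls were also lost on the deposited TPM (adjusted p = 0.134 for Ighg1, 0.254 for Ighg2b and 0.0746 for Ighg2c) and on the authors' log2 values (0.269, 0.174 and 0.233), among other settings. With quantile normalization, which forces all libraries to the same distribution, the Ighm call was lost against each culture (1.94, 2.27 and 1.27 against 44 h, 68 h and unstimulated).

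Against DL1 with LPS at 68 h, 2.84% of all genes and 4 members were called: Ighm (3.65 ± 0.43), Ighg2c (3.38 ± 0.71) and Ighg3 (2.44 ± 0.43) rose, and Ighd fell (−2.46 ± 0.46). The Ighg2c call was lost on the authors' log2 values (adjusted p = 0.0879) and with an offset of 0.1 (0.122). Against unstimulated DL1, 14.6% of all genes and all 8 members were called. The 3 comparisons share the Blimp1+ libraries. Ighd fell by 5.24 on the log2 scale, to 39.7, 38.9 and 38.6 in Blimp1+ cells, against 1490, 1522 and 1534 in unstimulated DL1, and the other 7 rose, from 1.77 for Ighe to 5.36 for Ighg3. Of these, Igha was lost without Blimp1+ replicate 3 (2.15) or unstimulated replicate 3 (2.17), Ighg1 without Blimp1+ replicate 3 (1.96) and Ighg2c without Blimp1+ replicate 2 (2.17) or unstimulated replicate 2 (2.29). On the authors' log2 values Igha (adjusted p = 0.0676), Ighg1 (0.157) and Ighg2c (0.179) were all not called, and Ighg1 and Ighg2c were also lost on the deposited TPM and with an offset of 0.1.

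**Figure D5:**
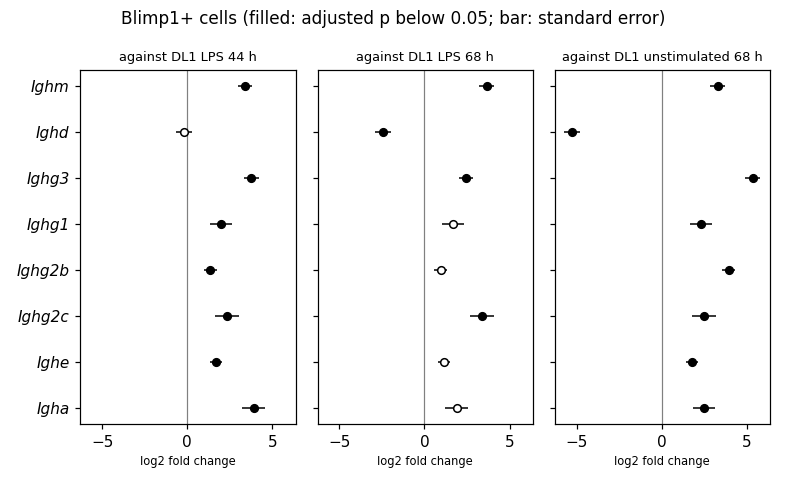
Log2 difference of Blimp1+ cells minus each DL1 culture (LPS 44 h, LPS 68 h, unstimulated 68 h) for each member with its SE; filled points were called. Ighm lies at 3.29 to 3.65 in all 3, and Ighd lies at −0.19 against LPS at 44 h, −2.46 against LPS at 68 h and −5.24 against unstimulated cells.

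The isotype shares of Blimp1+ cells differed from those of the LPS cultures. The switched share was 5.51, 5.25 and 5.40% in Blimp1+ cells, against 12.4, 15.3 and 12.6% in DL1 with LPS at 44 h and 16.9, 18.1 and 24.1% at 68 h, without overlap in either case. Ighd was 0.134 ± 0.00565% of Ighm plus Ighd in Blimp1+ cells and 1.58 ± 0.106% in DL1 with LPS at 44 h. Within the switched share, Ighg2b took 58.1 ± 0.891% in Blimp1+ cells and 85.9 ± 1.22% in DL1 with LPS at 44 h, and Ighg3 took 32.8 ± 1.92% in Blimp1+ cells and 9.10 ± 1.74% in the culture. The culture time of the sorted cells is not known, so these differences and those of time cannot be told apart.

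The light chain rose too. Igkc, the kappa constant gene, averaged 81160 scaled TPM in Blimp1+ cells and 7011 in DL1 with LPS at 44 h (3.53 ± 0.34, adjusted p = 3.21e-09), and the ratio of Igkc to the summed heavy chains was 2.63 ± 0.0944 in Blimp1+ cells and 2.14 ± 0.0817 in the culture, within the 1.45 to 3.71 of all libraries. Cd79a and Cd79b, the signalling partners of the membrane form, rose by 2.34 and 1.69 against LPS at 44 h, but neither was called against LPS at 68 h (1.00 and 0.33) or unstimulated DL1 (0.12 and −0.15). All 5 genes of J chain and secretion rose against each of the 3 cultures, with values against LPS at 44 h as follows. Igj, the J chain gene that serves the tails of IgM and IgA shown above, averaged 2222 ± 67.4 in Blimp1+ cells and 22.6 ± 1.48 in DL1 with LPS at 44 h (6.56 ± 0.50). Prdm1, which encodes Blimp1 and so checks the sort, averaged 75.6 ± 7.66 in Blimp1+ cells and 3.84 ± 1.26 in the culture (4.01 ± 0.33). Xbp1, a driver of the secretory apparatus, rose by 3.17 ± 0.62, and Mzb1, a chaperone for IgM assembly, by 2.75 ± 0.33. Ell2, an elongation factor that favours the secreted form in mouse plasma cells, rose by 2.11 ± 0.44 against LPS at 44 h (adjusted p = 0.000874), but was not called against LPS at 68 h (1.45 ± 0.44, adjusted p = 0.0709). Of the 7 RNA processing genes, 1 other, Hnrnpf, fell against LPS at 44 h (−0.77 ± 0.26), and Zfp318 alone was called against LPS at 68 h, where it fell (−2.06 ± 0.42). The plasma cell markers summed to 5971 to 6421 TPM in Blimp1+ cells, against 77.8 to 1237 TPM in all other libraries, but Sdc1, which encodes the plasma cell surface protein syndecan-1, was at 3.62 ± 1.35 scaled TPM in Blimp1+ cells, 3.40 ± 0.577 in DL1 with LPS at 44 h and 27.5 ± 2.50 in unstimulated DL1 (−2.67 ± 0.59 against unstimulated cells, adjusted p = 0.00121).

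Igj itself differed between the stromas with LPS. At 20 h its deposited TPM were 108, 85.9 and 80.6 in DL1 with LPS, against 35.8, 15.9 and 11.8 in OP9 with LPS. All 3 of these DL1 libraries had high Actb, whose part was not tested. Igj is given as scaled TPM at the later times. It averaged 22.6 ± 1.48 in DL1 with LPS at 44 h and 2.35 ± 0.979 in OP9 with LPS (limma, 2.86 ± 0.50, adjusted p = 0.00279). At 68 h the order was reversed, with 1.61 ± 0.929 in DL1 and 29.9 ± 3.97 in OP9 (−3.63 ± 0.50, adjusted p = 0.000162).

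The genes outside the immunoglobulin families whose group means followed each member most closely were found by Pearson's r over the 15 groups, among 9827 genes with a group mean of at least 10 scaled TPM. Both genes of a pair are read from the same libraries with the same scaling, so r is a description only. Ighm was followed by Txndc11 (0.92), Derl3 (0.91), a component of endoplasmic reticulum quality control, and Trabd (0.89). Ighd was followed by Plaur (0.91), Dclk2 (0.91) and Faim3 (0.90), the gene of the Fc receptor for IgM. Ighg3 was followed by Mzb1 (0.94) and Gstt2 (0.92), and Ighg2b by Tmem110 (0.96), Fcrl5 (0.93), a B cell surface receptor, and Fam212a (0.92). Ighg2c was followed by Gorasp2 (0.88), Cdk2ap2 (0.83) and Prdm1 (0.82), and Ighg1 by Ddx54 (0.88), Dusp4 (0.88) and Ppp6r1 (0.85). For the scarce Ighe (Gnb3, 0.925) and Igha (TMEM134, 0.91) the likeness rests on few reads. Between members, Ighg2b and Ighg2c (0.84) and Ighg2b and Ighg3 (0.82) were the most alike, and Ighd and Ighg2b the least (−0.81). Ighg2b shares 186 31-base words with Ighg2c and 81 with Ighg3, and the part of shared reads in these values was not tested.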

How the data were processed

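Poly(A) RNA-seq of 45 libraries (15 groups of 3) was analysed from 2 tables. The authors deposited TPM per gene, and separately log2 values, which equal log2 of library-scaled estimated counts (CPM) with 0.5 added to each. Per the submitters' processing notes, kallisto, limma and the builds GRCm38 and mm10 were used, with no versions or transcript set given in the sources used here. The labels and the series text name different amplification kits and 2 sequencers, without saying which library used which. Depth was read from the log2 table.

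Here the deposited TPM were divided by median-ratio size factors, and log2(value + 1) was fitted with limma 3.58.1 (R 4.3.3) as 15 group means with trended, robust moderation. The filter was at least 1 TPM in at least 3 libraries, which left 15614 of 30317 genes. P-values were adjusted by Benjamini-Hochberg over all tested genes. A fold change on the log2(value + 1) scale understates the change of low genes. Shares within a library were tested by two-sided exact permutation within times, adjusted over 8 tests. The fit was tested on simulated data first.

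The rule for names took all 8 members, at most 4 called genes per list and comparison by size of change, and the 3 genes most alike to each member. Members without a value in a comparison were not called in it. Counts of lists are given for some of the comparisons described. Some genes that this rule would name are not reported here. The members and lists were chosen with earlier results of these data known. Alternatives were other scalings, offsets and filters, the replicate block, fits of only the groups compared, and leaving out each library. Leaving out the 10 libraries with high Actb and restricting shares to 44 and 68 h were chosen after seeing the data. Sequences and coordinates are from GENCODE M21 on GRCm38. No 2 libraries were duplicates, with replicate pairs correlated at r = 0.723 to 0.985.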

Additional observations from a re-analysis of the deposited data

Results flagged for a closer look

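The DL1 minus OP9 log2 difference with LPS at 68 h exceeded that at 20 h by 2.57 ± 0.66 (limma, adjusted p = 0.0275), a comparison chosen after the values were seen. The like comparison of 68 with 44 h was not called (2.47 ± 0.66, adjusted p = 0.621). Ighd was lower in DL1 than in OP9 at 20 h and higher at 68 h, in 3 of 3 libraries against 3 each time. The call was lost without DL1 replicate 1 at 20 h (2.23), DL1 replicate 1 (2.56) or 2 (2.59) at 68 h, or OP9 replicate 1 (2.48) or 3 (2.67) at 68 h, with no filter (adjusted p = 0.0518) and with only the groups compared in the fit (0.0874). The 20 h value rests on DL1 libraries that all have high Actb, so no value without such libraries could be had, and their part in the result was not tested. The comparison of 68 with 44 h could be fitted without them, and 1 member was then called.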

How the results depend on the processing

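No called member reversed its direction under any alternative. Of 75 calls, 31 were kept under every alternative other than leaving out 1 library, 45 whichever library was left out, and 29 under both. The members called in time steps, 8 in the reported fit, numbered 4 on the deposited TPM, 4 on TPM rescaled to the genes outside the immunoglobulin families, 4 on the authors' log2 values and 13 when only the groups compared were fitted. Those for Blimp1+ cells, 19, numbered 12 on the authors' log2 values. Those for DL1 against OP9, 14, numbered 9 with no filter and 9 with only the groups compared. For the DL1 effect with LPS minus that with anti-IgM, with none called, there was 1 on the authors' log2 values, 1 with the filter at 5 TPM, 3 with only the groups compared and 2 without the libraries with high Actb. For the DL1 effect with LPS between times, with 1 called, there was 0 with no filter. The causes were not tested.

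Leaving out each library in turn gave 14 to 21 calls for Blimp1+ cells, 10 to 19 for DL1 against OP9, 0 to 3 and 0 to 2 for the DL1 effect between agents and between times, 16 to 21 for LPS against anti-IgM, 14 to 19 for stimulated against unstimulated and 6 to 11 for time steps. The switched share difference between DL1 and OP9 was 7.97 to 9.18 points with LPS and 0.478 to 0.537 with anti-IgM, and between LPS and anti-IgM 12.7 to 13.9 on DL1 and 4.84 to 5.54 on OP9. The Ighd share difference was −3.47 to −1.66 points with LPS and −29.7 to −23.2 with anti-IgM, and between LPS and anti-IgM −9.14 to −7.33 on DL1 and −35.4 to −28.9 on OP9. Without the libraries with high Actb the uncalled Ighd share difference with LPS was 0.67 points.

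Some scalings shift all genes: the median log2 difference was −0.01 for Blimp1+ cells against unstimulated DL1 and −0.46 on the deposited TPM, and −0.01 for DL1 against OP9 with anti-IgM at 20 h and 0.25 on the deposited TPM.

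The replicate numbers did not meet the condition set for pairing, that every same-numbered pair deviate together: the mean correlation of deviations was 0.0282 and the highest 0.774, and 20 of 45 libraries were closest to their own number. At 68 h, 4 of the 6 unsorted replicate 3 libraries share high Actb. With the replicate block, calls numbered 14 for DL1 against OP9, 15 for stimulated against unstimulated, 17 for LPS against anti-IgM, 8 for time steps, 19 for Blimp1+ cells and 1 between times. Depth limits Ighe, which had at most 7.94 estimated reads in any library outside Blimp1+ cells.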
